A study of Mus musculus with 2 samples.

Results

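Interferon-inducible GTPases are large GTP-hydrolysing proteins that interferons switch on for defence inside the cell. The 10 genes followed here were chosen by name, out of 22686 genes listed for the series, and all 10 were listed in both libraries. They were measured in T cells of the spleen by single-cell RNA sequencing with the BD Rhapsody whole transcriptome assay, in which each RNA molecule carries a unique molecular identifier (UMI). The CD45-KO library came from LatY136F mice that also lacked CD45 (gene Ptprc), a phosphatase on the surface of leukocytes, and the LatY136F library came from mice with the Lat mutation alone. Both genotypes therefore carried LatY136F, a tyrosine-to-phenylalanine change in the T cell adaptor LAT that is known to cause a T helper 2-type lymphoproliferation, and there was no wild-type sample. The mice were 8 to 9 weeks old, and cells had been sorted for CD3 and CD5. Each genotype had 1 library. The sources used here do not give the number of mice behind it. None of the differences could therefore be checked against replicates, and no test was made.

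As background, the genes followed here belong to 2 of the families of these proteins. Immunity-related GTPases (IRG) include effectors such as Iigp1, which load onto the vacuole membranes of intracellular parasites, and regulators, Igtp, Irgm1 and Irgm2, which keep effectors off the cell's own membranes. Guanylate-binding proteins (GBP), here Gbp2, Gbp3, Gbp4, Gbp5, Gbp7 and Gbp8, assemble on vacuoles and bacteria and help to set off inflammasomes. Interferon gamma acts on them through GAS elements in their promoters and through IRF1, while type I interferons act through a complex with IRF9, which binds ISRE elements. Most knowledge of their roles comes from macrophages and fibroblasts and less from T cells.

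The 10 genes lie on 4 mouse chromosomes (GRCm38, GENCODE M21, all protein coding). Gbp5 (ENSMUSG00000105504.4, 142493978 to 142522344), Gbp7 (ENSMUSG00000040253.15, 142530342 to 142550149), Gbp3 (ENSMUSG00000028268.14, 142560026 to 142573209) and Gbp2 (ENSMUSG00000028270.12, 142620602 to 142638008) follow each other on the plus strand of chromosome 3. Gbp8 (ENSMUSG00000034438.16, 105014150 to 105139540) and Gbp4 (ENSMUSG00000079363.7, 105115767 to 105139586) lie on the minus strand of chromosome 5. Igtp (ENSMUSG00000078853.8, 58199556 to 58207591, plus strand), Irgm2 (ENSMUSG00000069874.7, 58199618 to 58222782, plus strand) and Irgm1 (ENSMUSG00000046879.7, 48861968 to 48871683, minus strand) are on chromosome 11. Iigp1 (ENSMUSG00000054072.12, 60376027 to 60392634, plus strand) is on chromosome 18.

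Gene models overlap on the same strand for Igtp with Irgm2 (162 shared exonic bases) and for Gbp4 with Gbp8 (61 bases), and 637 exonic bases of Gbp7 lie in the pseudogene Gm43802. Counts of these 5 genes are uncertain where a read fell in shared sequence. Of all stretches of 75 bases in their transcripts, 7.80% for Igtp, 11.3% for Gbp7 and 8.04% for Gbp8 also occur in another gene, against 0% for Iigp1 and Irgm1.

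The promoters show what these genes share at the sequence level. RefSeq promoters of GRCm38.p6, running from 250 bases before to 50 after the start site, were at hand for 7 of the 10, Igtp, Irgm1, Irgm2, Gbp2, Gbp3, Gbp5 and Gbp7. Gbp3 had 2 promoters, of which the second held neither core described here, and the counts below are of genes with a match in any promoter. All 7 genes held the ISRE core, GAAA followed by 2 bases of any kind and GAAA again, on either strand, and 3.44% of 32851 mouse promoters of that length did. The GAS core TTCNNNGAA, which reads the same on both strands, was in 4 of the 7, Igtp, Irgm2, Gbp5 and Gbp7, and in 8.30% of all promoters. The stretches below are shown because they hold these matches, in capitals, within the surrounding promoter. They are given in the direction of the gene.
Igtp, chr11:58199491-58199551, plus strand: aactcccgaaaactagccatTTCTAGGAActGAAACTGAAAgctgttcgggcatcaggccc
Irgm2, chr11:58214882-58214942, plus strand: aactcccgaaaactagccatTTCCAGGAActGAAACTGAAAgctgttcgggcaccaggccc
Irgm1, chr11:48871415-48871470, minus strand: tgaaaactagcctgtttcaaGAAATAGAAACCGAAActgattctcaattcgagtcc
Gbp2, chr3:142620584-142620633, plus strand: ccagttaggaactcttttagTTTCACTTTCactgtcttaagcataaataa
Gbp3, chr3:142559979-142560034, plus strand: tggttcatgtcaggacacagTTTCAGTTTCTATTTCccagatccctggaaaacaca
Gbp7, chr3:142530210-142530312, plus strand: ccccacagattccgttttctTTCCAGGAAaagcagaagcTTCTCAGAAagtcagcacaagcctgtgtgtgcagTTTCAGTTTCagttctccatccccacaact

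The Igtp and Irgm2 stretches are near copies, with 59 of 61 bases identical, and in both a GAS core stands just before an ISRE core. Irgm1 and Gbp3 each hold 2 ISRE cores that overlap. In Gbp5 the matches are spread over 228 bases, with GAS cores at -245 and -52 and an ISRE core at -165, counted from the start site to the first base of the match. A match is a description of the letters and not evidence of a bound site.

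**Figure D1:**
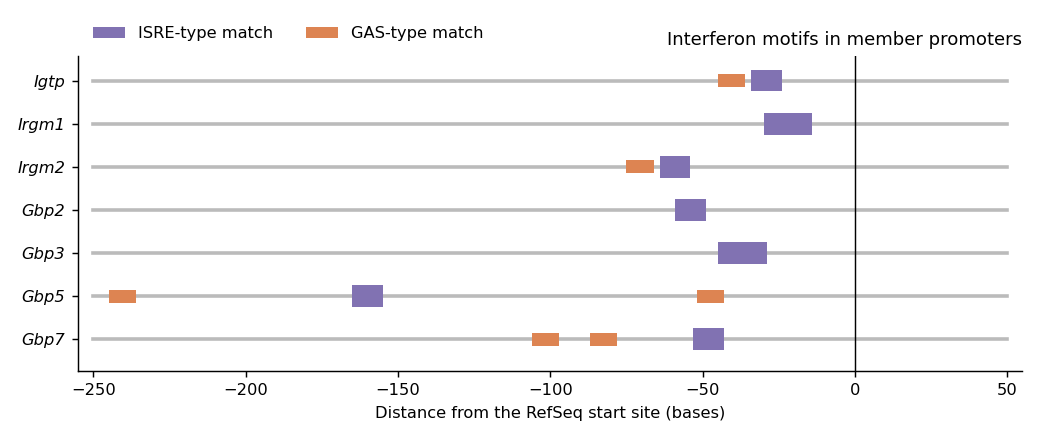
Positions of ISRE-type (GAAA, 2 bases, GAAA, either strand) and GAS-type (TTCNNNGAA) matches in the promoters of 7 members, as distance in bases from the RefSeq start site; grey lines mark the 300 bases searched. In 6 of the 7 genes the ISRE-type match lies within 64 bases before the start site, and in Gbp5 it begins at -165.

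The libraries were of like depth. The CD45-KO library held 29268453 UMIs with a median of 1991 per cell, and the LatY136F library 35300371 UMIs with a median of 2153. Filters kept 12834 CD45-KO and 13747 LatY136F cells, of which 12753 CD45-KO and 13731 LatY136F cells were T cells by their transcripts, and 223 cell indexes occurred in both libraries. Ptprc, the targeted gene, stood at 1178 counts per 1000000 UMIs of the group (CPM) in CD45-KO and 1759 CPM in LatY136F T cells. Its transcripts thus remained in the library labelled CD45-KO, and since the deleted exons are not named this value does not check the label. T cells were sorted into states by fixed lists of transcripts that hold no member. Interferon-high cells had at least 2 of 11 interferon-response genes detected (415 CD45-KO and 522 LatY136F cells), and Tfh-like cells, named for T follicular helper cells that help B cells in germinal centres, had at least 2 of 10 Tfh genes (515 CD45-KO and 653 LatY136F cells). The other 11823 CD45-KO and 12556 LatY136F T cells are called the remaining T cells. The gates divide a continuous range: 1846 CD45-KO and 1889 LatY136F cells lay 1 gene below the interferon gate, and 2619 CD45-KO and 2750 LatY136F cells 1 gene below the Tfh gate.

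Over all T cells the GTPases together were at nearly the same level in both libraries, and the summed level of Iigp1 was the exception. The 10 genes summed to 522 CPM in CD45-KO and 500 CPM in LatY136F T cells, a log2 ratio of 0.06 (95% interval 0.03 to 0.09). Every interval here takes UMIs as independent and covers counting error alone, not differences between cells, mice or captures. UMIs of a gene can gather in few cells, as for Iigp1, and the intervals are then too narrow. Ratios between the libraries are log2 of the CD45-KO CPM divided by the LatY136F CPM. Iigp1 was at 6.36 CPM (183 UMIs) in CD45-KO and 2.16 CPM (76 UMIs) in LatY136F, a ratio of 1.56 (1.17 to 1.96). It was the 1 member of 10 higher by at least 1.5-fold, where 8.58% of the 12814 genes with at least 20 UMIs were, and 0 members were lower by as much, against 8.9% of genes. The 10 richest cells for Iigp1 held 82 of the 183 UMIs in CD45-KO and 33 of the 76 in LatY136F. The share of T cells with an Iigp1 UMI was 0.651% (0.519 to 0.806) in CD45-KO and 0.350% (0.258 to 0.463) in LatY136F. With cells thinned to equal depth it was 0.331% (0.237 to 0.448) in CD45-KO and 0.248% (0.171 to 0.348) in LatY136F. These thinned intervals overlapped. The members' median was 0.14 and that of all genes 0.03, and 7 members lay above 0 and 3 below.

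Among the regulators, Igtp was at 55.6 CPM in CD45-KO and 59.5 CPM in LatY136F T cells (ratio -0.10), Irgm1 at 62.6 CPM in CD45-KO and 58.9 CPM in LatY136F (0.09), and Irgm2 at 40.2 CPM in CD45-KO and 34.9 CPM in LatY136F (0.20, 0.08 to 0.32). Gbp7, which in mouse macrophages links vacuoles to oxidase and autophagy proteins, had 4624 UMIs in CD45-KO and 5946 in LatY136F T cells, or 161 CPM in CD45-KO and 169 CPM in LatY136F (-0.07). These 4 differed by less than 1.5-fold. On chromosome 5, Gbp4 had 89.8 CPM in CD45-KO and 80.6 CPM in LatY136F (0.16), and Gbp8 46.5 CPM in CD45-KO and 39.0 CPM in LatY136F (0.25, 0.14 to 0.36). Gbp2, which coats parasite vacuoles, stood at 48.6 CPM in CD45-KO and 44.5 CPM in LatY136F (0.13). Gbp5, known for promoting inflammasome assembly, was sparse, with 7.68 CPM in CD45-KO and 6.53 CPM in LatY136F (0.23, -0.04 to 0.51). Levels of different genes are not ranked, since UMI counts also depend on how well each transcript is captured.

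Gbp3 had the lowest ratio of the members, and its level differed between the states. It had 3.65 CPM (105 UMIs) in CD45-KO and 4.74 CPM (167 UMIs) in LatY136F T cells, a ratio of -0.38 (-0.74 to -0.02). In the remaining T cells it was at 2.24 CPM in CD45-KO and 3.76 CPM in LatY136F (-0.75, -1.23 to -0.28), and it was the 1 of 10 members lower there by 1.5-fold, where 9.22% of genes were. Gbp3 was higher in cycling cells, at 11.1 CPM in CD45-KO and 12.4 CPM in LatY136F, than in T cells of no named state, at 1.57 CPM in CD45-KO and 1.82 CPM in LatY136F. Cycling cells made up 1.36% of CD45-KO and 5.36% of LatY136F T cells. With each state given the same weight in both libraries the Gbp3 ratio was -0.06 in the remaining T cells and 0.11 over all T cells.

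Outside the Tfh-like and interferon-high cells the other members barely differed between the libraries. The remaining T cells had a summed level of 479 CPM in CD45-KO and 463 CPM in LatY136F, and a median ratio of 0.10 against 0.02 for all genes. There 0 members were higher by 1.5-fold, where 7.73% of genes were. Iigp1, with 24 UMIs in CD45-KO and 29 in LatY136F, was at 0.943 CPM in CD45-KO and 0.956 CPM in LatY136F (-0.02, -0.86 to 0.81). A higher Iigp1 level in CD45-KO was thus not detectable in the remaining cells at this depth. As an exception, the ratio was 1.14 when cells above 10% mitochondrial counts were removed, which left 7366 CD45-KO and 9976 LatY136F remaining cells. With that filter the Tfh gate also moved from 2 to 3 genes. Cells with 2 Tfh genes outside the interferon gate then counted as remaining, so the group was not the same.

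**Figure D2:**
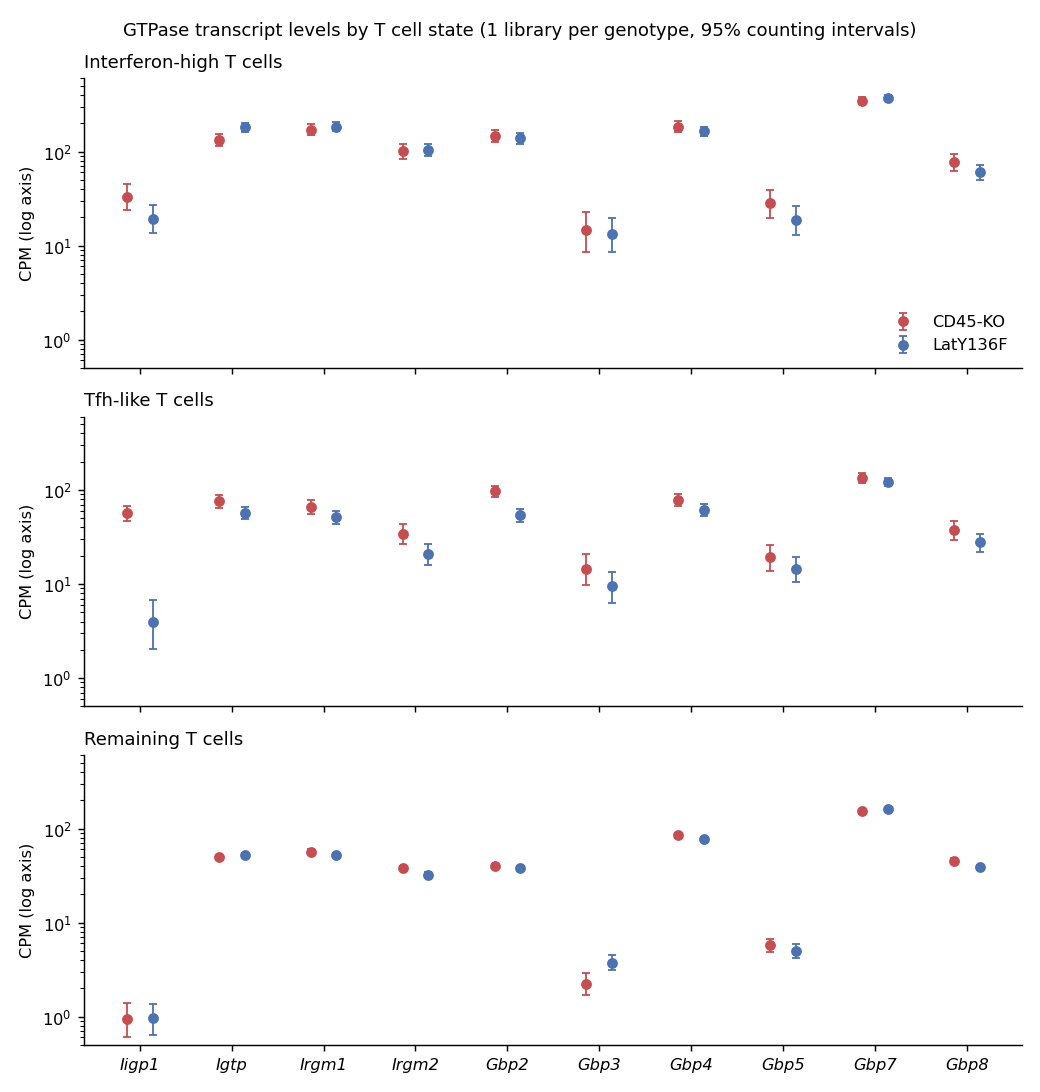
CPM (log axis) of each GTPase gene in interferon-high, Tfh-like and remaining T cells, with CD45-KO as red points left of LatY136F as blue points; bars are 95% counting intervals and each point is 1 library. All 10 genes sit higher in interferon-high than in remaining T cells in both libraries, and Iigp1 in Tfh-like cells stands at 56.9 CPM in CD45-KO and 3.92 CPM in LatY136F.

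The interferon-high cells check the name of the group, since the genes that gated them are not GTPases. In both libraries, 10 of 10 members were at least 1.5-fold higher there than in the remaining T cells of the same library, where 13.4% of genes in the CD45-KO library and 10.3% in the LatY136F library were, and 0 were lower by as much, where 8.22% of genes in the CD45-KO library and 8.23% in the LatY136F library were. The members' median log2 ratio was 1.5 in CD45-KO and 1.80 in LatY136F, against -0.02 in CD45-KO and -0.03 in LatY136F for all genes. Summed, the family reached 1237 CPM in CD45-KO and 1253 CPM in LatY136F interferon-high cells, the highest of the 8 states with at least 50 cells in both libraries. Cytotoxic-like cells held 599 CPM in CD45-KO and 632 CPM in LatY136F, and cycling cells were last in both, with 364 CPM in CD45-KO and 330 CPM in LatY136F and intervals that overlapped those of naive-like cells. In the middle the order is not firm: the intervals of T cells of no named state, Gzmb-positive and Il4-positive cells (485, 482 and 478 CPM) overlapped in CD45-KO, and Il4-positive, Tfh-like and naive-like cells (459, 422 and 422 CPM) overlapped their neighbours in LatY136F.

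The contrast with the interferon state differed in size from gene to gene. Iigp1 differed most, at 33.1 CPM in interferon-high against 0.943 CPM in remaining CD45-KO T cells (35.1-fold) and 19.3 CPM in interferon-high against 0.956 CPM in remaining LatY136F T cells (20.2-fold), on 41 CD45-KO and 35 LatY136F UMIs in interferon-high cells. Gbp3 was 6.50-fold and Gbp5 4.93-fold higher in interferon-high than in remaining cells within CD45-KO, ahead of the other members. Within LatY136F, Gbp3 was 3.53-fold and Gbp5 3.75-fold higher, close to the next 4 genes. These 4, Gbp2, Igtp, Irgm1 and Irgm2, lay between 2.66-fold and 3.70-fold in CD45-KO and between 3.24-fold and 3.65-fold in LatY136F. The chromosome 5 pair and Gbp7 differed least: interferon-high cells exceeded the remaining cells 2.27-fold for Gbp7 within the CD45-KO library and 2.29-fold within the LatY136F library. The same contrast was, for Gbp4, 2.13-fold in CD45-KO and 2.12-fold in LatY136F, and for Gbp8 1.68-fold in CD45-KO and 1.55-fold in LatY136F.

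The level of the family also differed along the interferon range. In T cells with 0, 1, 2, 3, 4 and 5 or more of the 11 interferon genes detected, the summed GTPase level was 472, 571, 692, 1186, 2324 and 3687 CPM in CD45-KO and 453, 489, 758, 1228, 1606 and 3013 CPM in LatY136F. Each step was upward in both libraries. Gbp7 ended at 1127 CPM in CD45-KO and 872 CPM in LatY136F cells with 5 or more genes, against 147 CPM in CD45-KO and 158 CPM in LatY136F cells with 0. Gbp8 ended at 99.6 CPM in CD45-KO and 87.2 CPM in LatY136F, against 46.2 CPM in CD45-KO and 38.4 CPM in LatY136F cells with 0. More interferon genes are detected in deeper cells, so cells were also thinned to 1000 UMIs each. At that depth cells with 0, 1, 2 and 3 or more genes had 494, 684, 1478 and 3016 CPM in CD45-KO and 468, 686, 1378 and 3711 CPM in LatY136F. Gbp8 in cells with 3 or more genes was then at 78.1 CPM in CD45-KO (5 UMIs, interval 25.4 to 182) and 197 CPM in LatY136F (15 UMIs, 110 to 326), against 49.0 CPM in CD45-KO and 39.4 CPM in LatY136F cells with 0.

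**Figure D3:**
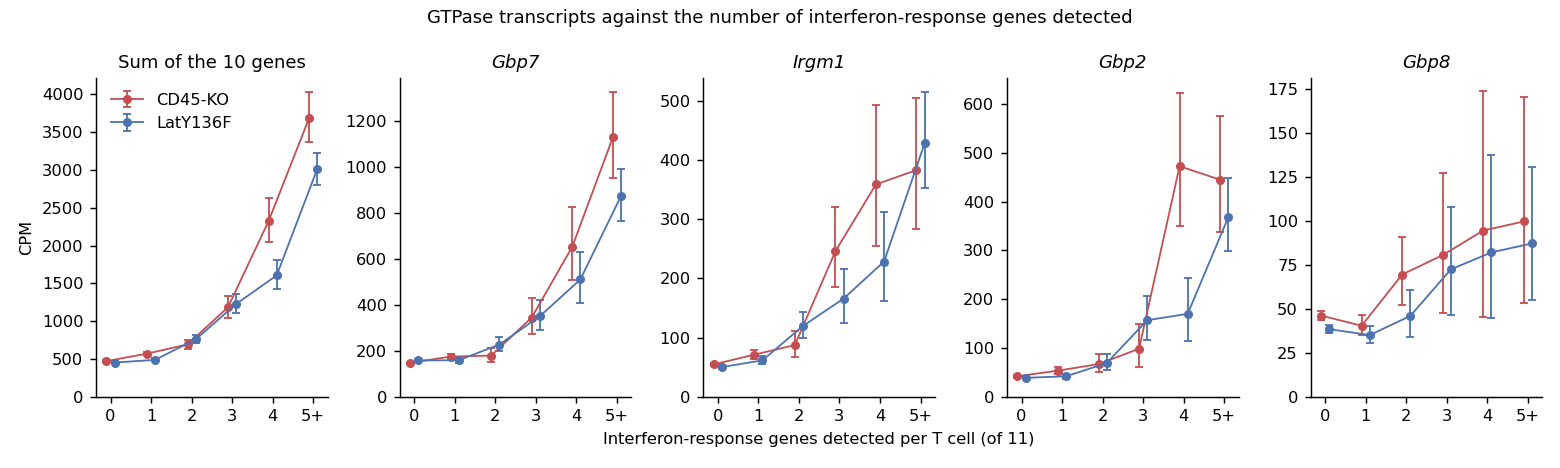
CPM of the 10 GTPase genes together and of Gbp7, Irgm1, Gbp2 and Gbp8 against the number of interferon-response genes detected in a T cell (0 to 5 or more of 11), for CD45-KO in red and LatY136F in blue; bars are 95% counting intervals. The summed level goes up at each step to 3687 CPM in CD45-KO and 3013 CPM in LatY136F, while Gbp8, in these unthinned counts, stays under 100 CPM.

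Cells with several members detected were more frequent in the interferon-high state. A higher level alone also makes such cells more frequent, and the shares were not compared with what the level would give. At 1000 UMIs per cell, 11.1% of CD45-KO and 13.3% of LatY136F interferon-high cells held UMIs of 3 or more of the 10 genes, against 1.26% of CD45-KO and 0.874% of LatY136F remaining T cells. Tfh-like cells had 2.35% in CD45-KO and 0.774% in LatY136F. Without thinning, the shares were 35.2% in CD45-KO and 43.5% in LatY136F interferon-high cells, 24.5% in CD45-KO and 17.2% in LatY136F Tfh-like cells, and 5.70% in CD45-KO and 6.79% in LatY136F remaining cells. Thinning left out 357 CD45-KO and 433 LatY136F T cells. No cell type in the sort is known to lack these genes, so no level of free RNA could be set beside the shares.

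Between the libraries, interferon-high cells showed smaller contrasts than the state itself. The members' median ratio was 0.11, against 0.00 for all genes. Iigp1 (33.1 CPM in CD45-KO and 19.3 CPM in LatY136F, ratio 0.78, 0.09 to 1.47) and Gbp5 (28.3 CPM in CD45-KO and 18.8 CPM in LatY136F, 0.59, -0.13 to 1.32) were the 2 members higher by 1.5-fold, where 10.3% of genes were higher, and 0 were lower, where 10.3% of genes were. Iigp1 did not pass 1.5-fold when each cell had equal weight (0.15) or when cells above 10% mitochondrial counts were removed (0.38). Gbp5 rests on 35 CD45-KO and 34 LatY136F UMIs, and with states gated after thinning its ratio was -0.23. Igtp was at 133 CPM in CD45-KO and 181 CPM in LatY136F (-0.44, -0.72 to -0.16). The remaining 7 lay between -0.10 and 0.35, with intervals that included 0. Gbp2 had 147 CPM in CD45-KO and 138 CPM in LatY136F, but 1 CD45-KO cell held 32 of its 182 UMIs there.

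Markers of other cells also differed between the interferon-high groups. Macrophage and monocyte markers summed to 32.3 CPM in CD45-KO (5 of 6 genes, C1qc at 0) and 14.4 CPM in LatY136F (5 of 6, C1qa at 0), and dendritic cell markers to 19.4 CPM in CD45-KO (2 of 4, Siglech and Clec9a at 0) and 2.76 CPM in LatY136F (1 of 4, only Flt3 found). B cell markers summed to 4.04 CPM in CD45-KO (4 of 5 genes) and 1.66 CPM in LatY136F (3 of 5), and plasma cell markers to 5.66 CPM in CD45-KO (2 of 3, Sdc1 at 0) and 1.10 CPM in LatY136F (1 of 3, Sdc1 and Mzb1 at 0). After all cells with a UMI of a B cell, plasma cell, macrophage, monocyte or dendritic cell marker were left out, the summed GTPase level was 1286 CPM in CD45-KO and 1281 CPM in LatY136F, and the members' median ratio was 0.02. Iigp1 then stood at 31.9 CPM in CD45-KO and 18.1 CPM in LatY136F (0.81), and Gbp5, at 27.3 CPM in CD45-KO and 19.9 CPM in LatY136F (0.46), was under 1.5-fold.

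Of the 3 groups of T cells, the Tfh-like cells were where the summed family differed most between the libraries. The 10 genes summed to 616 CPM in CD45-KO and 422 CPM in LatY136F Tfh-like cells, a ratio of 0.55 (0.43 to 0.66), and all 10 members had ratios above 0. Their median was 0.44, against 0.04 for all genes. Of the 10, 4 were higher by at least 1.5-fold, where 10.9% of genes were, and 0 were lower, where 7.46% were. The 4 were Iigp1, Gbp2, Irgm2 and Gbp3. The count rests on the gate: 1 member passed 1.5-fold with gates a list gene lower, where Gbp3 was at -0.29, and 2 passed with states gated after thinning or without the cells that had an interferon gene. In these last cells Gbp5 (-0.31) and Gbp7 (-0.11) lay below 0.

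Iigp1, an effector IRG protein, had the largest ratio of the members. Tfh-like cells held 118 Iigp1 UMIs in CD45-KO and 12 in LatY136F, or 56.9 CPM in CD45-KO and 3.92 CPM in LatY136F, a ratio of 3.86 (3.0 to 4.85). Of its UMIs over all T cells, these are 118 of 183 in CD45-KO and 12 of 76 in LatY136F. Most Iigp1 UMIs thus lay in Tfh-like cells in CD45-KO and outside them in LatY136F. Of the T cells with an Iigp1 UMI, 41 of 83 in CD45-KO and 8 of 48 in LatY136F were Tfh-like. The transcript was in few cells: 41 of 515 CD45-KO (7.96%) and 8 of 653 LatY136F Tfh-like cells (1.23%) had a UMI, and at 1000 UMIs per cell the shares were 3.33% in CD45-KO and 0.464% in LatY136F. The 10 richest CD45-KO cells held 75 of the 118 UMIs. Of the cells with Iigp1, 25 of the 41 CD45-KO cells and 8 of the 8 LatY136F cells had 0 of the 11 interferon genes detected. In Tfh-like cells without any of these genes Iigp1 was at 51.6 CPM in CD45-KO and 5.28 CPM in LatY136F (3.29, 2.40 to 4.30).

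Gbp2 was at 97.5 CPM (202 UMIs) in CD45-KO and 54.2 CPM (166 UMIs) in LatY136F Tfh-like cells, a ratio of 0.85 (0.54 to 1.15). Irgm2 was at 34.3 CPM in CD45-KO and 20.9 CPM in LatY136F (0.71, 0.20 to 1.22). Gbp3 had only 30 CD45-KO and 29 LatY136F UMIs, or 14.5 CPM in CD45-KO and 9.47 CPM in LatY136F, and its interval included 0 (0.61, -0.17 to 1.40). Among the members under 1.5-fold, Igtp was at 76.7 CPM in CD45-KO and 56.8 CPM in LatY136F (0.43, 0.11 to 0.75), Irgm1 at 66.1 CPM in CD45-KO and 51.3 CPM in LatY136F (0.37, 0.02 to 0.71) and Gbp4 at 78.6 CPM in CD45-KO and 61.4 CPM in LatY136F (0.36, 0.05 to 0.67). The intervals of Gbp5 (0.43), Gbp7 (0.14) and Gbp8 (0.44) included 0.

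**Figure D4:**
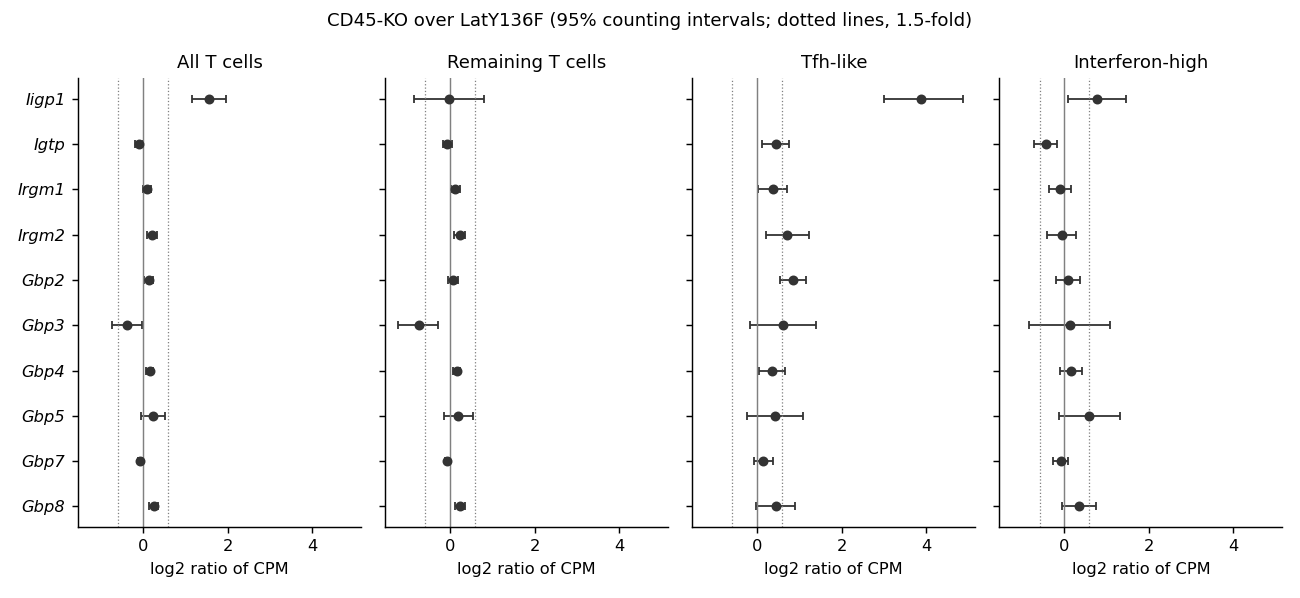
Log2 ratio of CPM, CD45-KO over LatY136F, for each GTPase gene over all, remaining, Tfh-like and interferon-high T cells; bars are 95% counting intervals, the solid line is no difference and the dotted lines are 1.5-fold. In Tfh-like cells all 10 points lie right of 0, with Iigp1 at 3.86, while over all T cells only Iigp1 passes 1.5-fold.

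The Tfh-like gate held cells of unequal kind in the libraries, and some of these ratios depended on it. CD45-KO cells passed it with a mean of 3.61 Tfh genes and LatY136F cells with 3.01. Tfh-like cells with at least 4 Tfh genes numbered 214 in CD45-KO and 163 in LatY136F. The family there summed to 691 CPM in CD45-KO and 519 CPM in LatY136F (0.41, 0.23 to 0.60). Of these sums Iigp1 alone was 107 CPM in CD45-KO and 12.6 CPM in LatY136F (3.10, 2.16 to 4.20). Irgm1 (-0.11), Gbp2 and Gbp5 (-0.23) lay below 0 there, and the other members above it. Gbp2 there was at 122 CPM in CD45-KO and 123 CPM in LatY136F (-0.011). The values that follow, by number of Tfh genes, are of all T cells, interferon-high cells included, and so not of the gated group. In cells with 2 Tfh genes Gbp2 was at 114 CPM in CD45-KO and 33.7 CPM in LatY136F. Along the Tfh range, Iigp1 reached 198 CPM (86 UMIs in 19 of 100 cells) in CD45-KO and 20.5 CPM (7 UMIs in 4 of 68 cells) in LatY136F cells with 6 or more Tfh genes, against 1.25 CPM in CD45-KO and 1.81 CPM in LatY136F cells with 0. Gbp2 was higher at the end of the range in both, at 150 CPM in CD45-KO and 202 CPM in LatY136F, against 40.9 CPM in CD45-KO and 40.4 CPM in LatY136F cells with 0. Gbp7 was lower there, at 98.99 CPM in CD45-KO and 84.9 CPM in LatY136F, against 162 CPM in CD45-KO and 172 CPM in LatY136F cells with 0.

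**Figure D5:**
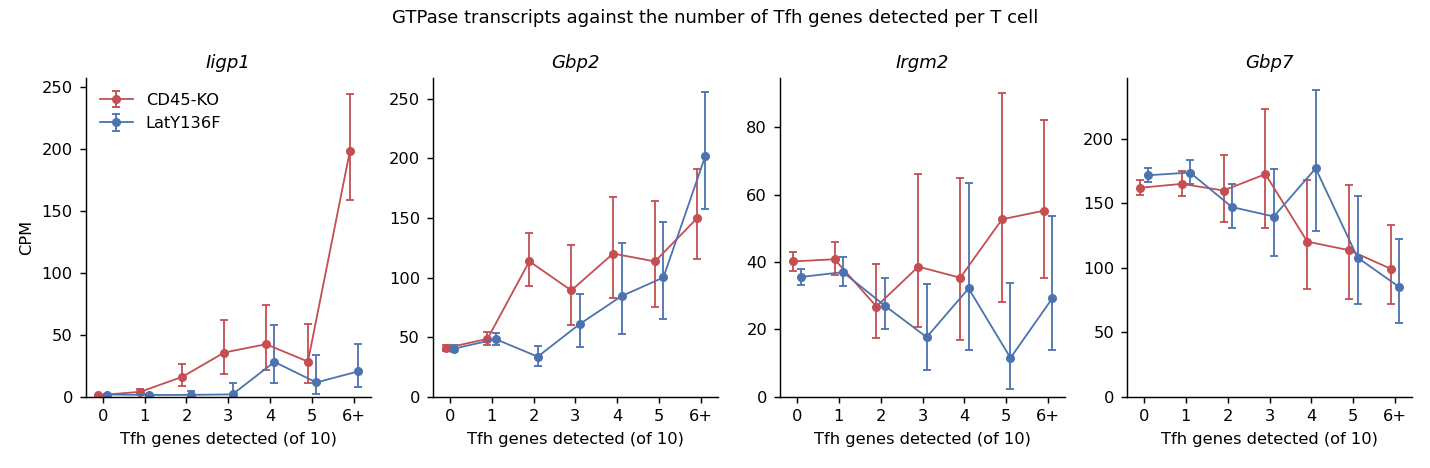
CPM of Iigp1, Gbp2, Irgm2 and Gbp7 against the number of Tfh genes detected in a T cell (0 to 6 or more of 10), for CD45-KO in red and LatY136F in blue; bars are 95% counting intervals. Iigp1 reaches 198 CPM in CD45-KO cells with the most Tfh genes and 20.5 CPM in LatY136F, Gbp2 is highest in the last bin of both, and Gbp7 is lowest in the last bin of both.

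Set against the remaining T cells of its own library, the Tfh-like state split the family. In CD45-KO, 5 members were higher by 1.5-fold, Iigp1, Gbp3, Gbp5, Gbp2 and Igtp, where 21.4% of genes were, and 0 were lower, where 12.7% were. In LatY136F, 3 were higher, Iigp1, Gbp3 and Gbp5, where 16.7% of genes were, and 1 was lower, Irgm2 (20.9 CPM in Tfh-like and 32.2 CPM in remaining cells), where 10.8% were. Over the remaining cells of the same library, Gbp3 was 6.46-fold higher in CD45-KO and 2.52-fold in LatY136F Tfh-like cells, and Gbp5 3.36-fold in CD45-KO and 2.87-fold in LatY136F. Gbp4, Gbp7 and Gbp8 lay below the remaining cells in both libraries, at 0.913, 0.875 and 0.823-fold in CD45-KO and 0.792, 0.754 and 0.714-fold in LatY136F. In CD45-KO the intervals of Gbp4 and Gbp8 included no difference. Igtp was 1.53-fold higher in Tfh-like than in remaining cells within CD45-KO and 1.08-fold within LatY136F.

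B-lineage transcripts also differed between the Tfh-like groups, and not only there. Plasma cell markers summed to 291 CPM in CD45-KO (3 of 3 genes) and 6.21 CPM in LatY136F Tfh-like cells (2 of 3, Sdc1 at 0), B cell markers to 28.0 CPM in CD45-KO and 15.4 CPM in LatY136F (5 of 5 in both), macrophage and monocyte markers to 19.3 CPM in CD45-KO (5 of 6, C1qa at 0) and 13.1 CPM in LatY136F (6 of 6), and dendritic cell markers to 4.82 CPM in CD45-KO (3 of 4, Clec9a at 0) and 2.94 CPM in LatY136F (1 of 4, only Xcr1 found). In the remaining T cells plasma cell markers summed to 58.4 CPM in CD45-KO and 10.6 CPM in LatY136F, and B cell markers to 5.11 CPM in CD45-KO and 3.63 CPM in LatY136F. Pou2af1, 1 of the 10 gate genes, is also a B cell gene. The differences of the summed family, Iigp1 and Gbp2 were about as large without the cells that carried any such marker UMI. In the 462 CD45-KO and 601 LatY136F Tfh-like cells left, the family summed to 618 CPM in CD45-KO and 426 CPM in LatY136F (0.54, 0.42 to 0.66), Iigp1 was at 55.2 CPM in CD45-KO and 3.29 CPM in LatY136F (4.07, 3.09 to 5.24) and Gbp2 at 92.4 CPM in CD45-KO and 49.7 CPM in LatY136F (0.90). Gbp3 was then under 1.5-fold, with 13.0 CPM in CD45-KO and 9.49 CPM in LatY136F (0.45), which left 3 members past it.

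Of 24 further interferon-inducible and related GTPases on a list, Mx and Gvin proteins included, 16 were in the files and 14 had 20 UMIs over all T cells. Of these, 5 were higher by 1.5-fold, where 8.58% of all genes were, and 2 lower, where 8.9% were. Their median ratio was 0.35, against 0.03 for all genes. Sequence shared with other genes was not examined for this list, Tgtp1 and Tgtp2 included. Tgtp2, another IRG effector, was at 32.7 CPM in CD45-KO and 16.6 CPM in LatY136F (0.98, 0.83 to 1.13), Tgtp1 at 12.3 CPM in CD45-KO and 5.37 CPM in LatY136F (1.19) and Gbp10 at 2.05 CPM in CD45-KO and 1.02 CPM in LatY136F (1.00). Gm4841 (27 UMIs in CD45-KO and 8 in LatY136F) and 9930111J21Rik1 (0.63) were the others. Gbp9 (0.33), 9930111J21Rik2 (0.32) and Gvin1 (0.21) were under 1.5-fold. The lower pair were Mx1, a dynamin-like antiviral GTPase that type I interferon induces, at 5.08 CPM in CD45-KO and 11.8 CPM in LatY136F (-1.22, -1.50 to -0.95), and Gbp2b, with 3 UMIs in CD45-KO and 22 in LatY136F. In Tfh-like cells Tgtp2 was at 64.2 CPM in CD45-KO and 15.7 CPM in LatY136F (2.03, 1.55 to 2.54), and 4 of 10 such genes with 20 UMIs were higher by 1.5-fold, Tgtp1 (1.64), Gbp6 (0.76) and Gbp9 (0.64) besides Tgtp2, and 2 lower, Mx1 (-1.64) and Irgq (-0.98), where 10.9% of all genes were higher and 7.46% lower.

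Of the signalling genes upstream, 0 of 11 in the interferon gamma pathway passed 1.5-fold in either direction over all T cells. Of all genes, 8.58% were higher and 8.9% lower by as much. The pathway's median was 0.16, against 0.14 for the 10 members and 0.03 for all genes. Ifng itself gave 30 UMIs in CD45-KO and 25 in LatY136F T cells, of which 9 in CD45-KO and 1 in LatY136F were in Tfh-like cells, too few to compare. Irf1 was at 176 CPM in CD45-KO and 136 CPM in LatY136F T cells (0.37) and the kinase Jak2 at 344 CPM in CD45-KO and 291 CPM in LatY136F (0.24). Socs3, an inhibitor of cytokine signalling, was at 67.7 CPM in CD45-KO and 82.8 CPM in LatY136F (-0.29). In Tfh-like cells 2 of 10 pathway genes with 20 UMIs were higher, among them Irf8 (1.02), where 10.9% of all genes were. The 2 lower, where 7.46% of all genes were, were Ifngr2 (-0.63) and Socs3. Socs3 was at 16.4 CPM in CD45-KO and 43.1 CPM in LatY136F (-1.39, -1.98 to -0.84).

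Lists of other genes that interferons induce had medians near 0 over all T cells. Beside each count over all T cells below stand the shares of all genes, 8.58% higher and 8.9% lower by 1.5-fold. Of 14 interferon gamma targets with 20 UMIs, 1 was higher by 1.5-fold over all T cells, Ciita (1.54, on 57 UMIs in CD45-KO and 24 in LatY136F), and 1 lower, Serpina3g (-0.86), with a median of -0.07. Psmb10, an immunoproteasome subunit, was at 86.7 CPM in CD45-KO and 110 CPM in LatY136F (-0.35), and Tap2, which carries peptides for class I presentation, at 107 CPM in CD45-KO and 129 CPM in LatY136F (-0.27). Of 27 type I targets 0 passed 1.5-fold in either direction, with a median of 0.00. The largest ratios were those of Ifi27l2a, at 563 CPM in CD45-KO and 789 CPM in LatY136F (-0.49), Zbp1, a nucleic acid sensor, at 45.5 CPM in CD45-KO and 62.6 CPM in LatY136F (-0.46), Eif2ak2 (-0.42) and Lgals3bp (-0.42). In Tfh-like cells 3 of 25 type I targets were higher, Rtp4 (0.83), Ifih1 (0.83) and Parp14 (0.70), which is close to the 10.9% of all genes, and 0 were lower, where 7.46% were, with a median of 0.06. Of 12 interferon gamma targets with 20 UMIs there, 1 was higher and 1 lower, against the same 10.9% and 7.46% of all genes, with a median of 0.17. Among 9 genes of type I signalling 0 passed 1.5-fold over all T cells, with a median of -0.02. The receptor chains Ifnar1 (0.35) and Ifnar2 (0.28) had the largest ratios above 0, and Socs1 (-0.20) and Tyk2 (-0.19) the largest below.

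The genes whose pattern was most like that of the summed GTPases were sought over 16 values, 8 states in 2 libraries. The measure was Pearson's r of log2(CPM + 10), across 3652 other genes of at least 50 CPM over all T cells. The values of 1 library share that library, so r is a description only. Ifi47, itself an IRG GTPase, came first (r = 0.95), followed by Samhd1, a dNTP hydrolase that restricts viruses (0.93), Mndal, a PYHIN protein (0.92), Trim30a (0.92) and Irf9, a subunit of the ISRE-binding complex (0.91). Without the interferon-high state their r was 0.83, 0.81, 0.84, 0.58 and 0.71.

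Few non-T cells were in the sort, 81 in CD45-KO (0.631%) and 16 in LatY136F (0.116%). Their summed GTPase level was 385 CPM on 192 UMIs in CD45-KO and 221 CPM on 17 UMIs in LatY136F, so it was below that of T cells in both.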

How the data were processed

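The deposited tables hold molecule counts for every cell and gene, with UMI errors already corrected by the authors. Per the file headers they came from the BD Rhapsody whole transcriptome pipeline 1.9.1 with GRCm38 and GENCODE M19, which was followed, although pipeline 2.0 stands in the design text and GRCm39 in the submitters' processing notes. No tag map from cells to mice was used. A cell was kept if it had 200 genes or more and no more than 25% mitochondrial counts (11 CD45-KO and 28 LatY136F removed). Doublets were neither called nor removed.

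A cell with at least 3 UMIs of B cell or myeloid markers, and more of these than of T cell receptor genes, was called non-T. A state's gate was the smallest number of detected list genes that at most 5% of T cells of both libraries together passed, and a cell took the first state it passed, interferon-high before Tfh-like. Counts were summed per library and state and scaled to CPM. Ratios have exact conditional binomial 95% intervals, levels exact Poisson and shares Clopper-Pearson intervals. Only the ratio intervals were checked, on simulated Poisson counts. Those counts do not hold the gathering of UMIs in single cells, so the check does not cover it. Genes with at least 20 UMIs over both groups were compared, and a count of 0 was set to 3. All 10 members are named; in other lists the 4 largest ratios among genes of at least 20 CPM are the rule, and Ifng, Tgtp1, Gbp10, Gm4841, 9930111J21Rik1, Gbp2b, Mx1, Gbp6, Irgq, Irf8, Ifngr2, Ciita, Serpina3g, Rtp4, Ifih1 and Parp14 were added after their values were seen. Members, lists and gates were chosen with earlier results of these data known. Tools were Python 3.11.15, NumPy 2.4.6 and SciPy 1.17.1. Alternatives were another scaling, other filters and gates, thinning and an equal mix of states. Values of some genes of the lists are not reported here.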

Additional observations from a re-analysis of the deposited data

Results flagged for a closer look

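Igtp was higher in CD45-KO in one state and lower in another. Its log2 ratio of CD45-KO over LatY136F was 0.43 (0.11 to 0.75) in Tfh-like cells, at 76.7 CPM in CD45-KO and 56.8 CPM in LatY136F, and -0.44 (-0.72 to -0.16) in interferon-high cells, at 133 CPM in CD45-KO and 181 CPM in LatY136F. The counting intervals lie on opposite sides of 0. With 1 library per genotype the difference between the states was not tested. With gates set 1 list gene lower the ratios were -0.0075 in Tfh-like and -0.056 in interferon-high cells.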

How the results depend on the processing

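Over all T cells the members' median ratio lay between 0.11 and 0.18 under all 15 alternatives, and the number past 1.5-fold was 1 higher and 0 lower in each. The median ran from 0.08 to 0.19 in remaining, 0.16 to 0.55 in Tfh-like and -0.06 to 0.33 in interferon-high cells. The number of members 1.5-fold higher in Tfh-like cells, 4 as reported, was 2 with states gated after thinning, 1 with gates a list gene lower and 2 in Tfh-like cells without interferon genes. Gbp2 in Tfh-like cells was at -0.011 with at least 4 list genes, Gbp3 at -0.29 with gates a list gene lower, and Gbp5 in interferon-high cells at -0.23 with states gated after thinning. Iigp1 over all T cells was at 0.94 when each cell had equal weight and at 2.11 when cells above 10% mitochondrial counts were removed. Iigp1 in Tfh-like cells was lowest, at 2.66, with gates a list gene lower. The cause was not tested. Leaving out cells with markers of other types, the gates at 4 list genes and Tfh-like cells without interferon genes were chosen after seeing the data. No paired analysis was possible because each genotype has 1 library and the labels give no replicate numbers. Depth limits Gbp3, Gbp5 and Iigp1, each under 50 UMIs per library in interferon-high cells.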

Other observations

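The richest single cell for Gbp2 was a CD45-KO interferon-high cell with 32 Gbp2 UMIs among 3930. It held 1 or 2 UMIs each of Iigp1, Igtp, Irgm1, Irgm2, Gbp3, Gbp4 and Gbp8 and 0 of Gbp5 and Gbp7, and 4 of the 11 interferon genes.

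In interferon-high cells with at least 4 interferon genes (83 CD45-KO and 121 LatY136F) the family summed to 3076 CPM in CD45-KO and 2460 CPM in LatY136F, a log2 ratio of 0.32 (0.18 to 0.46). Iigp1 there was at 148 CPM in CD45-KO and 39.1 CPM in LatY136F (1.92, 1.05 to 2.85). Gbp2 was at 457 CPM in CD45-KO and 290.0 CPM in LatY136F (0.66, 0.27 to 1.04). The single cell described above was in this CD45-KO group and held 32 of its 108 Gbp2 UMIs. Igtp was at 300.4 CPM in CD45-KO and 366 CPM in LatY136F (-0.28, -0.71 to 0.13).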
